A study of Mus musculus with 16 samples.

Results

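The integrated stress response was examined through 10 genes, namely Atf4, Atf5, Ddit3, Trib3, Asns, Psat1, Phgdh, Mthfd2, Gdf15 and Ppp1r15a, in the gene count table of 16 mouse hearts. The genes were chosen by symbol. Their symbols matched 11 of the 55573 rows of the table, because Ddit3 has a second Ensembl identifier for a short open reading frame. That second row held 0 to 3 counts per heart and was not tested. The other 10 rows all passed the filter on low counts and belong to the 19955 genes tested.

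RNA from the ventricles of male mice was sequenced, with 4 hearts in each of 4 groups. Every mouse carried the aMHC-MerCreMer transgene, a tamoxifen-inducible Cre driven by a cardiomyocyte promoter, on a Trbp-Flox/Flox background. Control mice received corn oil at the age of 4 weeks, whereas Trbp-cKO mice received tamoxifen at 30 mg/kg once daily for 5 days. Control and Trbp-cKO mice then had sham surgery or transverse aortic constriction (TAC), which narrows the aorta and overloads the left ventricle, and hearts were taken 8 weeks after surgery. The control groups thus shared both alleles with the Trbp-cKO groups but not the drug, so that loss of Trbp and exposure to tamoxifen cannot be told apart here. Deletion was restricted to cardiomyocytes, and the whole ventricle was sequenced.

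In the integrated stress response, the kinases PERK, GCN2, PKR and HRI phosphorylate the translation factor eIF2α. General protein synthesis then falls, while the mRNA of the transcription factor ATF4 is translated more, through upstream open reading frames. ATF4 protein switches on genes for amino acid synthesis, for further transcription factors and for secreted signals, and the phosphatase subunit GADD34, the product of Ppp1r15a, ends the response by removing the phosphate from eIF2α. TRBP, encoded by Tarbp2, is a double-stranded RNA-binding partner of Dicer that also binds and restrains PKR. ATF4 protein is set largely by translation, which mRNA counts do not measure.

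Total counts ranged from 45166994 to 68274222 per heart. Levels are given as CPM, counts scaled to the library total, on TMM-adjusted library sizes, for replicates 1 to 4 in order. A gene was called when its Benjamini-Hochberg adjusted p from edgeR's quasi-likelihood test over all 19955 genes was at most 0.05 and its absolute log2 fold change was at least 0.8. Tarbp2 was at 30.6, 32.7, 33.3 and 32.4 CPM in control sham hearts, at 25.2, 21.1, 30.6 and 31.1 in control TAC hearts, at 9.09, 8.39, 11.4 and 9.21 in Trbp-cKO sham hearts and at 7.14, 8.57, 9.05 and 9.74 in Trbp-cKO TAC hearts. No Trbp-cKO heart reached the level of a control heart. All 9 cardiomyocyte markers were detected, that is, had counts in the series.

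Promoter sequences are shown for the genes called in these data, Ppp1r15a and Gdf15, and for Asns, which holds the letters of an ATF4 response element. RefSeq promoter windows of GRCm38.p6 matched 10 of the 10 genes, in 13 windows, and the 250 bases before each start were searched on both strands. The runs below hold the last 100 bases before the start on the strand of the gene, and capitals mark a motif match.
Ppp1r15a, chr7:45526269-45526368, minus strand: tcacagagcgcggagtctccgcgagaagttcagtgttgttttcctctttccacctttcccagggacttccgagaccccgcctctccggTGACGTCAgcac
Gdf15, chr8:70632457-70632556, minus strand: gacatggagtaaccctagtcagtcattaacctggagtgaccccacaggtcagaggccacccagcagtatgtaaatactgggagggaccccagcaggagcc
Asns, chr6:7693210-7693309, minus strand: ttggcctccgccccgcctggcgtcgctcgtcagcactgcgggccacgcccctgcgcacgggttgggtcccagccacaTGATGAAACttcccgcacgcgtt

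The letters TGATGNAAN, the core of the C/EBP-ATF response element, were found among the 10 genes in Asns only, 23 bases before its RefSeq start. They were found in 3.44% of all 32851 mouse promoter windows, or in 3.89% of the 27025 genes with a window. The Ensembl gene of Asns begins further upstream, at chr6:7693254, so that the match lies within that gene. The palindrome TGACGTCA, the cyclic AMP response element that ATF and CREB factors bind, was found in Ppp1r15a only, 12 bases before its start. It was found in 1.55% of all windows, or in 1.77% of genes. The endoplasmic reticulum stress element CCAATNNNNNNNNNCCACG was found in no window of these genes and in 0.113% of all windows. Sites outside the searched bases, such as those within introns, were not looked for.

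Across the 10 genes, few members were called (see the plot of CPM by heart). The 4 pairwise comparisons were those with TAC in control hearts, with TAC in Trbp-cKO hearts, between the sham groups (Trbp-cKO over control) and between the TAC groups (Trbp-cKO over control). With TAC in control hearts Gdf15 was called, the only 1 of 10 genes, where 3.75% of all genes tested were called. None of the 10 was called between the sham groups, where 0.967% of all genes were called and 3 of the 10 had an unadjusted p under 0.05 in edgeR, as had 13.7% of all genes. DESeq2 also called none there. Gdf15 and Ppp1r15a were called between the TAC groups, with 2.46% of all genes called, and again with TAC in Trbp-cKO hearts, with 5.57% called. Ppp1r15a alone was called for the interaction, the difference between Trbp-cKO and control hearts in the change with TAC, with 0.872% of all genes called. Each call was towards a higher level with TAC or in Trbp-cKO hearts, or a higher change with TAC in Trbp-cKO hearts. These comparisons share groups of hearts, so their values are not independent of each other.

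**Figure D1:**
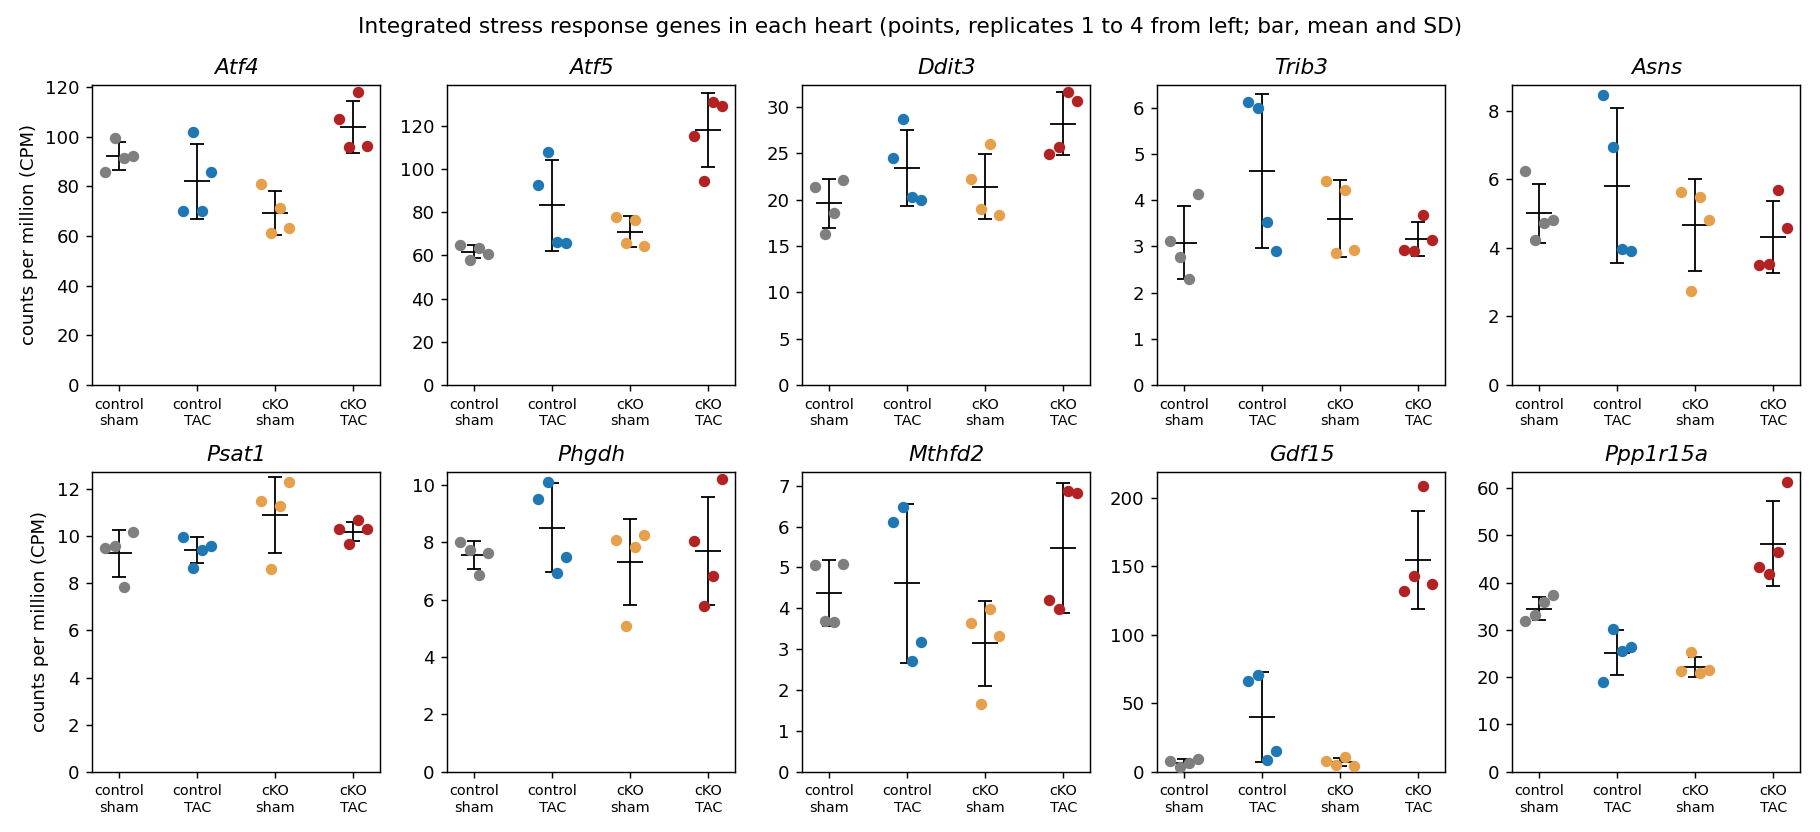
CPM (vertical axes, each from 0) of the 10 genes in each heart of the 4 groups, with points for replicates 1 to 4 from left to right and bars for the mean and SD (n = 4). Gdf15 in Trbp-cKO TAC hearts lies between 132 and 209 CPM, and Ppp1r15a there lies above all hearts of the other groups.

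At the adjusted p alone, without the threshold on the fold change, 1 of the 10 genes passed with TAC in control hearts (6.29% of all genes), 1 between the sham groups (1.68%), 2 between the TAC groups (5.53%), 4 with TAC in Trbp-cKO hearts (9.94%) and 1 for the interaction (1.05%). The median log2 fold change of the 10 genes was 0.19, 0.03, 0.26 and 0.49 in the 4 pairwise comparisons in this order and 0.22 for the interaction, beside medians between -0.01 and 0.02 over all genes tested. The CPM of the compared groups did not overlap for 2 of the 10 genes with TAC in control hearts, Atf5 being higher and Ppp1r15a lower, where 17.4% of all genes did not overlap. Atf4 and Ppp1r15a did not overlap, both lower in Trbp-cKO hearts, between the sham groups (14.7% of all genes). Gdf15 and Ppp1r15a did not overlap between the TAC groups (10% of all genes). With TAC in Trbp-cKO hearts 5 of the 10 did not overlap, namely Atf4, Atf5, Mthfd2, Gdf15 and Ppp1r15a, all higher after TAC (17.2% of all genes).

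**Figure D2:**
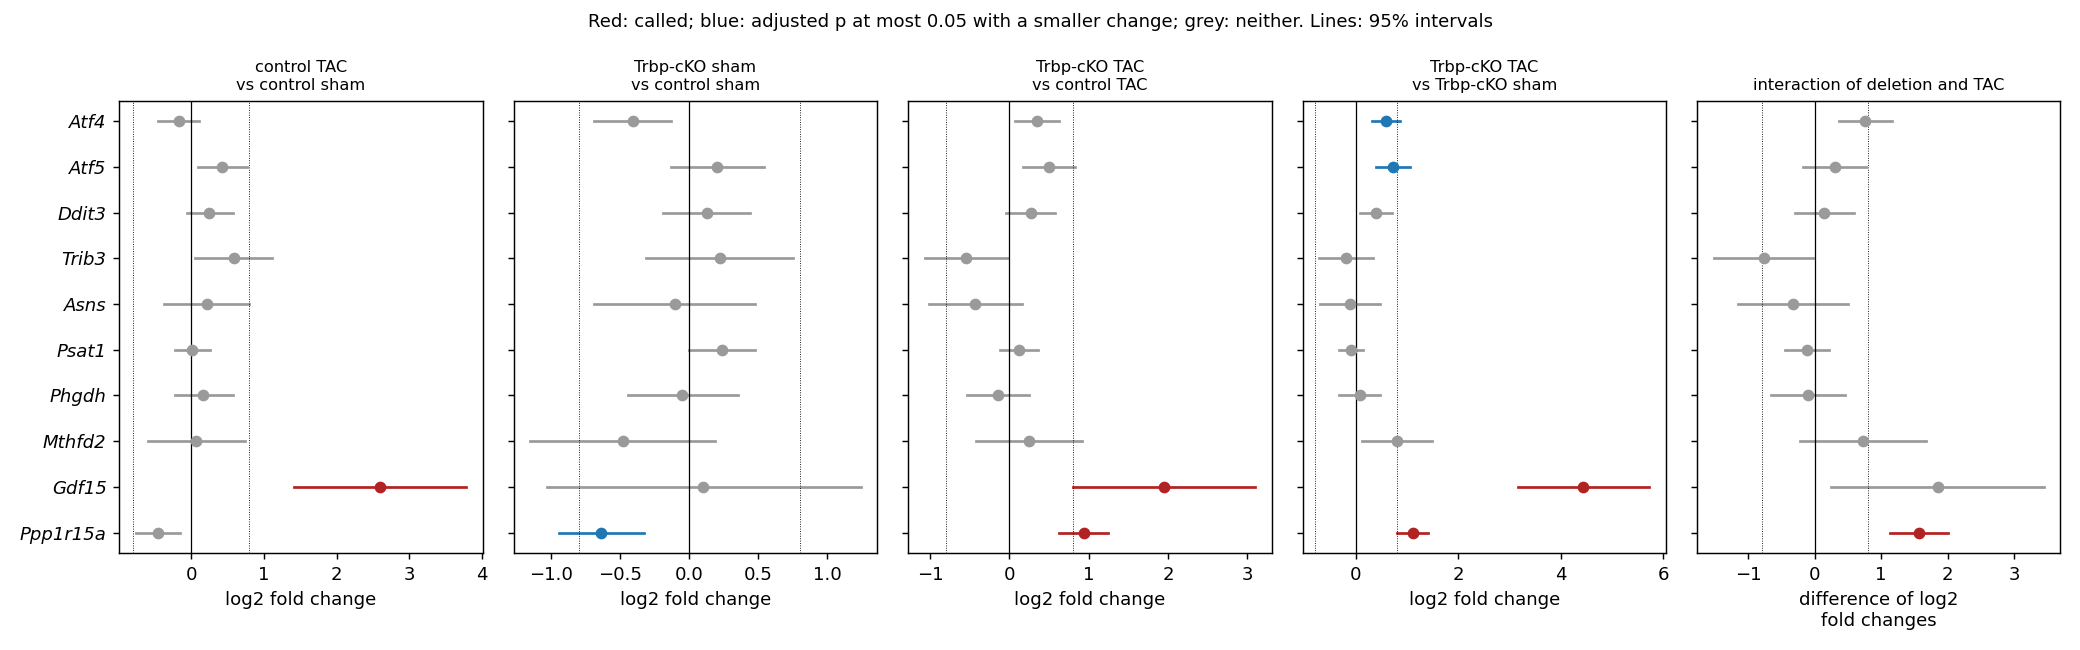
Log2 fold change (horizontal axes, scaled separately) of the 10 genes in the 4 pairwise comparisons and the difference of fold changes for the interaction, with lines for 95% intervals and dotted lines at an absolute change of 0.8. Red points mark called genes, blue points genes that passed the adjusted p with a smaller change; the interval of Ppp1r15a for the interaction runs from 1.14 to 2.00.

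Ppp1r15a, the feedback arm of the pathway, changed with TAC differently in control and Trbp-cKO hearts. It was at 31.8, 33.2, 35.8 and 37.4 CPM in control sham hearts, at 18.9, 30.1, 25.6 and 26.3 in control TAC hearts, at 21.2, 25.4, 20.9 and 21.5 in Trbp-cKO sham hearts and at 43.3, 41.8, 46.5 and 61.3 in Trbp-cKO TAC hearts. The Trbp-cKO TAC hearts stood above all others, the control sham hearts came next without overlap, and the 2 remaining groups overlapped. With TAC the gene rose 2.17-fold in Trbp-cKO hearts (log2 fold change 1.12, SE 0.14, edgeR adjusted p = 0.000170). In control hearts its log2 fold change with TAC was -0.45 (SE 0.14, edgeR adjusted p = 0.0687). DESeq2 gave -0.48 there, which passed its adjusted p (0.0215) but not the size for a call. The interaction was 1.57 on the log2 scale (SE 0.20, edgeR adjusted p = 0.00255) and ranked 9th by p among the 19955 genes.

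Between Trbp-cKO and control hearts, Ppp1r15a fell to 0.644 of the control level between the sham groups (log2 fold change -0.64, SE 0.14, edgeR adjusted p = 0.0371), a change below the size needed for a call. It was 1.91-fold higher in Trbp-cKO TAC than in control TAC hearts (log2 fold change 0.94, SE 0.14, edgeR adjusted p = 0.00163). The exact two-sided permutation test of CPM gave 0.0286 in each of its 4 pairwise comparisons, the smallest p that 4 against 4 hearts allow. In a fit of the 8 TAC hearts alone the difference between the TAC groups was 0.92 with an adjusted p of 0.0713. Only 0.409% of its exonic bases overlap another gene, Tulp2, on the opposite strand. Within groups its level hardly followed the other members, with correlations of log2 CPM between -0.37 and 0.22 over the 16 hearts after group means were removed.

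Whether the fall of Ppp1r15a in sham hearts passed the adjusted p depended on the fit. It passed in DESeq2 (adjusted p = 0.00238), in edgeR's fit of the sham hearts alone (0.00382) and in edgeR's exact test (3.61e-06). It was lost on scaling by library size (log2 fold change -0.54, adjusted p = 0.0809) and without the filter on low counts (-0.63, adjusted p = 0.0638). It passed in 0 of the 8 fits that left out a sham heart, with log2 fold changes of -0.71 to -0.60 and adjusted p of 0.0594 to 0.112. In these fits 74 to 130 of all genes were called between the sham groups, against 193 with all hearts. The interaction of Ppp1r15a held in each of the 16 fits that left out a heart, between 1.44 and 1.67 with adjusted p between 0.00171 and 0.00960. Circadian clock genes, a list chosen after the data were seen, were also called in 4 of the 5 comparisons. Of Arntl, Npas2, Clock and Nfil3, 2 fell with TAC in control hearts (3.75% of all genes called), 2 fell between the sham groups (0.967%), 2 rose with TAC in Trbp-cKO hearts (5.57%) and 3 were called higher for the interaction (0.872%). Of 9 clock genes of the opposite phase, 2 and 5 rose in the first pair of these comparisons, 3 fell with TAC in Trbp-cKO hearts and 4 were called lower for the interaction. Between the TAC groups, where Ppp1r15a was called, edgeR and DESeq2 called 0 of either set (2.46% of all genes in edgeR), and the unadjusted edgeR p was under 0.05 for 0 of 4 and 1 of 9. A clock score, the mean z-score of Arntl, Npas2, Clock and Nfil3 less that of the 9 others, was 1.24 to 2.74 in control sham, -0.72 to 0.09 in control TAC, -2.31 to -1.85 in Trbp-cKO sham and -1.01 to 2.44 in Trbp-cKO TAC hearts. With this score as a covariate, an alternative also chosen after the data were seen, the interaction of Ppp1r15a was 1.34 with an adjusted p of 0.295, and the changes with TAC in Trbp-cKO hearts (1.00, adjusted p = 0.0210) and between the TAC groups (0.90, adjusted p = 0.00475) remained called. The difference between the sham groups was then -0.45 with an adjusted p of 0.626. The covariate lowered the number of all genes called from 174 to 1 for the interaction and from 193 to 0 between the sham groups. It was 379 instead of 1112 with TAC in Trbp-cKO hearts and 462 instead of 491 between the TAC groups. Since the score did not overlap between the sham groups, deletion and score cannot be told apart in that comparison. Of 7 immediate early genes, namely Fos, Fosb, Jun, Junb, Egr1, Ier2 and Nr4a1, a list also chosen after the data were seen, edgeR and DESeq2 called 0 in each comparison. Their median log2 fold change was -0.41 with TAC in control hearts, -0.93 between the sham groups, -0.21 between the TAC groups and 0.54 with TAC in Trbp-cKO hearts, and it was 0.89 for the interaction. Their unadjusted edgeR p was under 0.05 for 0, 3, 0, 1 and 1 of the 7 in this order, beside 26.6%, 13.7%, 21.4%, 23.0% and 15.4% of all genes. Their part in the levels of Ppp1r15a was not tested.

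Gdf15, a secreted stress hormone of the TGF-β superfamily, had the widest range of the 10 genes. It was at 7.60, 3.54, 6.31 and 9.13 CPM in control sham hearts and at 8.20, 5.18, 10.7 and 4.52 in Trbp-cKO sham hearts. After TAC it was at 66.0, 70.9, 8.41 and 15.3 in control hearts and at 132, 143, 209 and 137 in Trbp-cKO hearts. Control TAC hearts fell into high levels in replicates 1 and 2 and low levels in replicates 3 and 4, replicate 3 lying within the sham range, whereas all 4 Trbp-cKO TAC hearts were above every other heart.

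With TAC, Gdf15 rose 6.04-fold in control hearts (log2 fold change 2.60, SE 0.56, edgeR adjusted p = 0.0159) and 21.8-fold in Trbp-cKO hearts (4.44, SE 0.60, edgeR adjusted p = 0.000254). Between the TAC groups it was 3.87-fold higher in Trbp-cKO hearts (1.95, SE 0.54, edgeR adjusted p = 0.0466), and between the sham groups the log2 fold change was 0.10 (SE 0.54, edgeR adjusted p = 0.968). The interaction of 1.85 (SE 0.75, edgeR adjusted p = 0.253) did not pass, so that a larger rise with TAC in Trbp-cKO hearts was not shown. The difference between the TAC groups kept its call in 1 of the 8 fits that left out a heart of either group, that without control TAC replicate 2, with adjusted p between 0.0349 and 0.113 over the 8. The rise with TAC in control hearts kept its call in 4 of 8 such fits and was lost without control sham replicate 2 or 3 or control TAC replicate 1 or 2, with log2 fold changes of 2.16 to 2.93 and adjusted p of 0.00247 to 0.0551. In fits of the 2 compared groups alone, the adjusted p of Gdf15 was 0.0866 for the rise with TAC in control hearts and 0.223 for the difference between the TAC groups, and without mitochondrial transcripts the latter was 0.0501.

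The share of mitochondrial transcripts split the control TAC hearts in the same way. Mitochondrially encoded transcripts made up 38.2% and 38.8% of counts in control TAC replicates 1 and 2 against 25.2% and 21.7% in replicates 3 and 4, and 18.2% to 26.3% in all hearts of the other groups. The summed level of 8 fibroblast markers, all detected, was 825 to 971 CPM in control sham, 1193 to 2146 in control TAC, 1133 to 1381 in Trbp-cKO sham and 2122 to 3889 in Trbp-cKO TAC hearts. Of the 8, 5 were above 0 between the TAC groups, with a median log2 fold change of 0.41, and Col1a1, Col1a2 and Postn were called (2.46% of all genes called), while Lum was at -0.12. With TAC in control hearts 7 of the 8 were above 0, with a median of 0.80, and 4 were called, Col3a1 beside those (3.75% of all genes called). The summed level of the 9 cardiomyocyte markers was 59764 to 65366, 22617 to 58291, 48551 to 63756 and 33880.1 to 59113 CPM in the same order. The 6 endothelial markers, all detected, summed to 926 to 1099.5, 1015 to 2023, 964 to 1480.1 and 859 to 1513 CPM, and 2 of them also set control TAC replicates 1 and 2 apart, Fabp4 with 869.7, 898, 424 and 474 CPM and Emcn with 63.0, 66.0, 28.6 and 24.4 in replicates 1 to 4. The 4 smooth muscle markers, all detected, summed to 208 to 346, 129.5 to 187, 444 to 672 and 394 to 835 CPM. Acta2 made up most of that sum, with group means of 219.8, 91.2, 499 and 466 CPM. With TAC in control hearts its log2 fold change was -1.27, while 3 of the 4 markers were above 0, with a median of 0.34. Acta2 was called between the TAC groups (log2 fold change 2.35, SE 0.28, edgeR adjusted p = 0.000289). Cnn1 was called there too (0.90, SE 0.25, edgeR adjusted p = 0.0453), which made 2 of the 4 (2.46% of all genes called). Acta2 was also called higher between the sham groups (1.18, SE 0.27, edgeR adjusted p = 0.0417; 0.967% of all genes called). Its fall with TAC in control hearts was called as well (edgeR adjusted p = 0.0164; 3.75% of all genes called). Among fibroblast markers, Postn was at 388, 443, 150.2 and 195 CPM in control TAC replicates 1 to 4 and Col1a1 at 233, 225, 132 and 159. Col1a2 and Col3a1 were also higher in replicates 1 and 2, while Lum, at 90.8, 77.5, 81.1 and 86.1, did not split. Among cardiomyocyte markers, Tnnt2, at 4131, 3295, 5684 and 5851, and Tnni3, at 1837, 1477, 2474 and 2368, were lower in replicates 1 and 2. The part of any of these in the levels of Gdf15 was not tested. In whole ventricle, fewer cells of a type and less RNA per cell cannot be told apart.

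**Figure D3:**
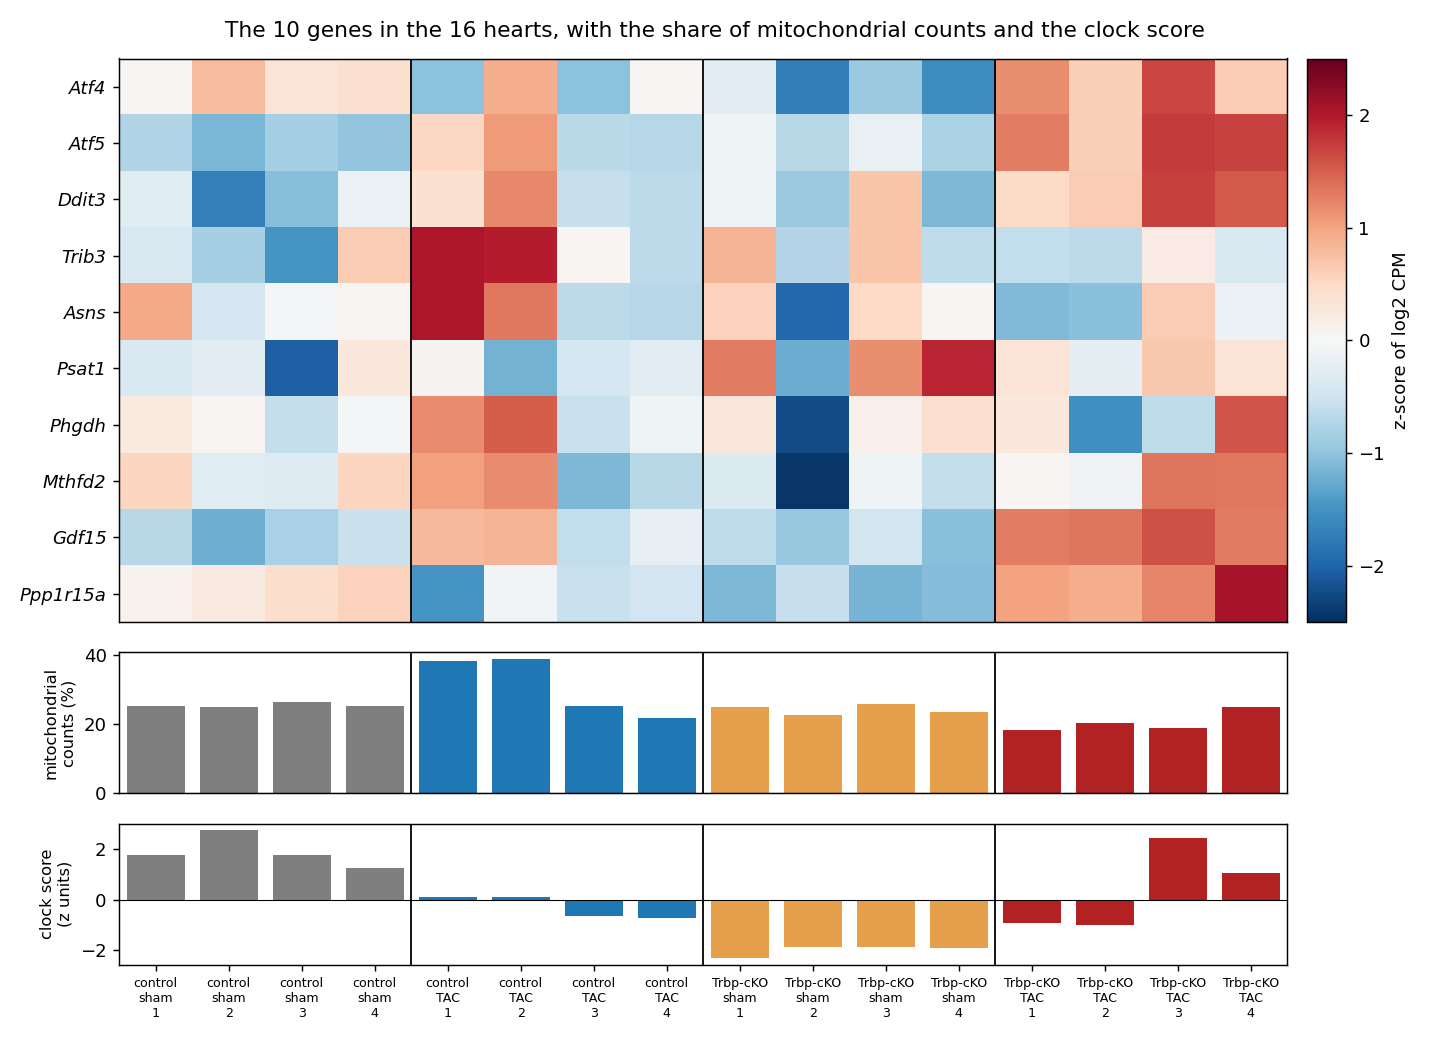
Z-scores of log2 CPM of the 10 genes in the 16 hearts (colors), above the percent of counts from the mitochondrial chromosome and the clock score in z units (bars, colored by group). Control TAC replicates 1 and 2, at 38.2% and 38.8% mitochondrial counts, are high for most genes, and the clock score separates the sham groups.

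Atf4, the transcription factor at the center of the pathway, was not called in any comparison. It was at 85.8, 99.5, 91.3 and 92.3 CPM in control sham hearts, at 70.1, 102, 70.2 and 86.0 in control TAC hearts, at 80.8, 61.3, 71.5 and 63.4 in Trbp-cKO sham hearts and at 107, 95.8, 118 and 96.1 in Trbp-cKO TAC hearts. Trbp-cKO sham hearts were the lowest group on average, and all 4 lay below every control sham and every Trbp-cKO TAC heart. Atf4 rose 1.51-fold with TAC in Trbp-cKO hearts (log2 fold change 0.59, SE 0.13, edgeR adjusted p = 0.00972), under the size needed for a call. With the clock score as covariate this was 0.47 with an adjusted p of 0.275. The log2 fold change was -0.17 (SE 0.13, edgeR adjusted p = 0.416) with TAC in control hearts, -0.41 (SE 0.13, edgeR adjusted p = 0.142) between the sham groups and 0.35 (SE 0.13, edgeR adjusted p = 0.140) between the TAC groups. Between the sham groups its lower level passed the adjusted p in DESeq2 (0.0355), in the fit of the sham hearts alone (0.0369) and in edgeR's exact test (0.00988). Between the TAC groups it passed on scaling by library size (0.48, edgeR adjusted p = 0.0367). Its interaction was 0.76 (SE 0.19) with an edgeR adjusted p of 0.0609 and a DESeq2 adjusted p of 0.00202.

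Atf5, a related factor that is also translated under eIF2α phosphorylation and that regulates the mitochondrial stress response, was also highest in Trbp-cKO TAC hearts on average. It was at 64.7, 58.0, 63.3 and 60.5 CPM in control sham hearts, at 92.4, 108, 66.1 and 65.5 in control TAC hearts, at 77.7, 65.9, 76.2 and 64.1 in Trbp-cKO sham hearts and at 115, 94.6, 131 and 129 in Trbp-cKO TAC hearts. Control TAC replicates 3 and 4 lay just above the highest control sham heart. Atf5 rose 1.66-fold with TAC in Trbp-cKO hearts (log2 fold change 0.73, SE 0.16, edgeR adjusted p = 0.00758), again under the size for a call. With the clock score as covariate the change was 0.43 with an adjusted p of 0.388. In control hearts its log2 fold change with TAC was 0.43 (SE 0.16, edgeR adjusted p = 0.105), and between the TAC groups it was 0.50 (SE 0.16, edgeR adjusted p = 0.0753 and DESeq2 adjusted p = 0.0120). After group means were removed, log2 CPM of Atf5 correlated with that of Gdf15 at 0.82, with Ddit3 at 0.80 and with Atf4 at 0.49 over the 16 hearts, as a description of libraries that share depth and composition.

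Ddit3, which encodes the pro-apoptotic factor CHOP, was at 21.4, 16.3, 18.5 and 22.1 CPM in control sham hearts, at 24.5, 28.7, 20.3 and 20.0 in control TAC hearts, at 22.2, 19.0, 26.0 and 18.3 in Trbp-cKO sham hearts and at 24.9, 25.7, 31.6 and 30.6 in Trbp-cKO TAC hearts. The groups overlapped in each pairwise comparison. Its largest log2 fold change, 0.40 (SE 0.15, 95% interval 0.09 to 0.71, edgeR adjusted p = 0.107), was that with TAC in Trbp-cKO hearts. Exons covering 10.9% of its bases overlap Mars and Gm4189 on the opposite strand or the second Ddit3 identifier, and the strand setting of the counting is not given in the sources used here.

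Trib3, a pseudokinase that ATF4 and CHOP induce and that restrains both, passed in no comparison. It was at 3.11, 2.77, 2.30 and 4.14 CPM in control sham hearts, at 6.11, 5.98, 3.53 and 2.90 in control TAC hearts, at 4.41, 2.85, 4.22 and 2.92 in Trbp-cKO sham hearts and at 2.93, 2.90, 3.68 and 3.14 in Trbp-cKO TAC hearts. Control TAC replicates 1 and 2 were the highest of the 16 hearts, and the Trbp-cKO TAC hearts lay within the range of the sham hearts. Its log2 fold change was 0.59 (SE 0.25, edgeR adjusted p = 0.150) with TAC in control hearts and -0.55 (SE 0.25, edgeR adjusted p = 0.214) between the TAC groups. The interaction was -0.77 (SE 0.35, edgeR adjusted p = 0.306).

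The enzymes of amino acid and folate metabolism, the classical targets of ATF4, among the 10 genes passed in none of the 5 comparisons. Asns, asparagine synthetase, was at 6.24, 4.23, 4.73 and 4.83 CPM in control sham hearts, at 8.47, 6.94, 3.97 and 3.90 in control TAC hearts, at 5.63, 2.74, 5.50 and 4.81 in Trbp-cKO sham hearts and at 3.49, 3.54, 5.70 and 4.57 in Trbp-cKO TAC hearts. The 2 highest hearts were control TAC replicates 1 and 2, and the groups overlapped throughout. Between the TAC groups its log2 fold change was -0.43 (SE 0.28, 95% interval -1.01 to 0.16, edgeR adjusted p = 0.391).

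Mthfd2, the mitochondrial folate enzyme, was at 5.07, 3.70, 3.66 and 5.08 CPM in control sham hearts, at 6.11, 6.47, 2.70 and 3.18 in control TAC hearts, at 3.64, 1.65, 3.97 and 3.31 in Trbp-cKO sham hearts and at 4.21, 3.99, 6.88 and 6.83 in Trbp-cKO TAC hearts. Levels after TAC and sham surgery in Trbp-cKO hearts did not overlap, though narrowly, at 3.99 CPM for the lowest of the former and 3.97 for the highest of the latter. The log2 fold change between these groups was 0.80 (SE 0.32, 95% interval 0.13 to 1.48, edgeR adjusted p = 0.132). Asns and Mthfd2 had the highest correlation of any pair of the 10 genes after group means were removed, 0.94 over the 16 hearts.

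Psat1 and Phgdh, which make serine from a glycolytic intermediate, passed in no comparison. Psat1 was at 9.49, 9.59, 7.85 and 10.2 CPM in control sham hearts, at 9.97, 8.65, 9.41 and 9.60 in control TAC hearts, at 11.5, 8.60, 11.3 and 12.3 in Trbp-cKO sham hearts and at 10.3, 9.66, 10.7 and 10.3 in Trbp-cKO TAC hearts. Its log2 fold change with TAC was 0.02 in control hearts (95% interval -0.22 to 0.26) and -0.10 in Trbp-cKO hearts (-0.33 to 0.14). Phgdh was at 7.99, 7.72, 6.86 and 7.61 CPM in control sham hearts, at 9.51, 10.1, 6.92 and 7.49 in control TAC hearts, at 8.07, 5.08, 7.83 and 8.25 in Trbp-cKO sham hearts and at 8.04, 5.78, 6.82 and 10.2 in Trbp-cKO TAC hearts. Its log2 fold changes ran from -0.14 to 0.17 in the 4 pairwise comparisons. Phgdh is uncertain, since 35.8% of its 75-base stretches also occur in other genes, mostly pseudogenes such as Gm7901.

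Per kilobase of exon, Atf4 and Atf5 were the most abundant members in control sham hearts, at 39.1 and 30.9 CPM per kilobase, followed by Ppp1r15a at 11.8 and Ddit3 at 11.4. Gdf15 was at 3.59, Phgdh at 3.04, Psat1 at 2.18, Asns at 1.83, Trib3 at 1.45 and Mthfd2 at 1.26. Ppp1r15a and Ddit3, Gdf15 and Phgdh, Gdf15 and Psat1, Psat1 and Asns, Asns and Trib3, and Trib3 and Mthfd2 lay closer to each other than the sum of their SDs. In Trbp-cKO TAC hearts Gdf15 led with 83.8 CPM per kilobase, ahead of Atf5 with 59.0 and Atf4 with 44.2. The counts behind these levels were lowest for Trib3, Asns and Mthfd2, whose levels of a few CPM rest on fewer counts than those of Atf4, which had 3556 to 8045 counts per heart.

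The genes whose log2 CPM followed each member most closely over the 16 hearts differed between members. For the mean z-score of the 10 genes, Sec61a1, a subunit of the endoplasmic reticulum translocon, came first with a Pearson correlation of 0.934. For Atf4 the 5 nearest were Ppp4r2, Ifrd1, Morf4l2, Med21 and Atf3, with correlations of 0.918 to 0.876. For Ppp1r15a, Supt5 came first at 0.964, ahead of Golt1b at 0.915 and Ifrd1 at 0.911. For Gdf15 the nearest were Trim47 at 0.973, Map6, Col8a2 and Nppb, the cardiac natriuretic peptide gene, at 0.961. These are descriptions over hearts that differ in group, and no likeness was tested.

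Upstream of ATF4, 17 genes of eIF2α kinases, their regulators, phosphatase subunits and the eIF2 and eIF2B complexes were measured, and none was called in any comparison by edgeR or DESeq2 (see the heat map of pathway genes). Their unadjusted edgeR p was under 0.05 for 5 of 17 with TAC in control hearts (26.6% of all genes), 3 between the sham groups (13.7%), 0 between the TAC groups (21.4%), 1 with TAC in Trbp-cKO hearts (23.0%) and 2 for the interaction (15.4%). At the adjusted p alone, 1 of 17 passed, Eif2ak2 with TAC in control hearts, where 6.29% of all genes passed. Eif2ak2, described here because it encodes the TRBP partner PKR, was at 11.6, 10.8, 10.2 and 10.7 CPM in control sham hearts, at 15.0, 15.5, 13.9 and 12.0 in control TAC hearts, at 13.6, 14.2, 15.9 and 13.7 in Trbp-cKO sham hearts and at 12.2, 11.8, 13.3 and 15.3 in Trbp-cKO TAC hearts. Every heart of the other groups was above every control sham heart. Its log2 fold change was 0.38 (SE 0.10, edgeR adjusted p = 0.0428) with TAC in control hearts and 0.41 (SE 0.10, edgeR adjusted p = 0.0621) between the sham groups. Ppp1r15b, the constitutive counterpart of Ppp1r15a as regulatory subunit of the eIF2α phosphatase, had log2 fold changes between -0.04 and 0.09 in the 4 pairwise comparisons.

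Of 14 partners and feedback genes of ATF4, 2 were called with TAC in control hearts (3.75% of all genes), 1 between the sham groups (0.967%), 0 between the TAC groups (2.46%), 2 with TAC in Trbp-cKO hearts (5.57%) and 1 for the interaction (0.872%). DESeq2 called 2, 3, 0, 4 and 3 in this order. Of all genes it called 1088, 369, 742, 1342 and 533, where edgeR called 748, 193, 491, 1112 and 174. The unadjusted edgeR p was under 0.05 for 5 (26.6% of all genes), 5 (13.7%), 3 (21.4%), 6 (23.0%) and 7 (15.4%) of the 14. Atf3, a stress-induced repressor, was at 19.8, 62.4, 26.2 and 27.8 CPM in control sham hearts, at 17.7, 27.6, 15.5 and 23.0 in control TAC hearts, at 13.5, 12.5, 15.7 and 13.4 in Trbp-cKO sham hearts and at 32.2, 29.5, 55.7 and 27.4 in Trbp-cKO TAC hearts. It rose with TAC in Trbp-cKO hearts (log2 fold change 1.40, SE 0.32, edgeR adjusted p = 0.0108), and its interaction passed (2.10, SE 0.45, edgeR adjusted p = 0.0364), as that of Ppp1r15a did. That fit held no clock score. With the score as covariate, 1 of all genes was called for the interaction. Cebpb, a dimer partner of ATF4, fell with TAC in control hearts (log2 fold change -1.19, SE 0.26, edgeR adjusted p = 0.0166) and between the sham groups (-1.28, SE 0.26, edgeR adjusted p = 0.0231). Nupr1, a stress-induced nuclear protein, was called higher with TAC in control hearts (1.52, SE 0.42, edgeR adjusted p = 0.0428) and in Trbp-cKO hearts (2.30, SE 0.42, edgeR adjusted p = 0.00266). It was at 17.1, 25.5, 5.50 and 6.79 CPM in control TAC hearts, where replicates 3 and 4 lay within the 3.35 to 7.42 CPM of control sham hearts and replicates 1 and 2, those with 38.2% and 38.8% mitochondrial counts, lay above.

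**Figure D4:**
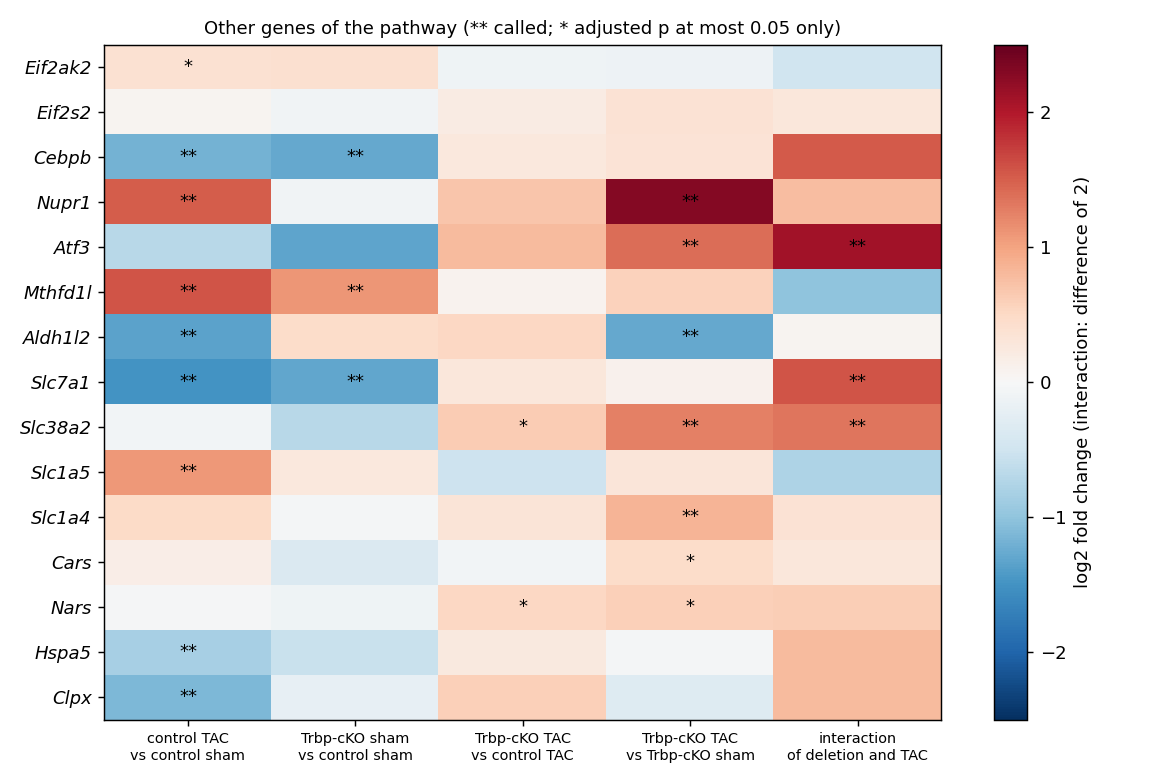
Log2 fold changes (colors) of the genes named from the other lists of the pathway in the 4 pairwise comparisons and, for the interaction, the difference of fold changes. Double asterisks mark called genes and single asterisks those that passed the adjusted p only; Atf3 at 2.10, Slc7a1 at 1.58 and Slc38a2 at 1.33 were called for the interaction.

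Further enzymes and transporters gave calls in either direction. Of 14 other enzymes of amino acid and folate metabolism, Mthfd1l rose with TAC in control hearts (log2 fold change 1.58, SE 0.25, edgeR adjusted p = 0.00301) and between the sham groups (1.10, SE 0.24, edgeR adjusted p = 0.0351), although at 1.04 to 5.52 CPM. Aldh1l2, a mitochondrial folate dehydrogenase, fell with TAC in control (-1.34, SE 0.31, edgeR adjusted p = 0.0240) and in Trbp-cKO hearts (-1.28, SE 0.31, edgeR adjusted p = 0.0158). Of these 14, 2 were called with TAC in control hearts, 1 between the sham groups and 1 with TAC in Trbp-cKO hearts, and of 10 amino acid transporters 2, 1 and 2 in the same order and 2 for the interaction, beside the shares of all genes given above. Between the TAC groups 0 of either list were called, and for the interaction 0 of the 14 enzymes. The unadjusted edgeR p was under 0.05 for 9 of the 14 enzymes and 3 of the 10 transporters with TAC in control hearts (26.6% of all genes). It was so for 3 and 2 between the sham groups (13.7%), 0 and 4 between the TAC groups (21.4%), 6 and 4 with TAC in Trbp-cKO hearts (23.0%) and 2 and 4 for the interaction (15.4%). Among the transporters Slc38a2, the glutamine carrier SNAT2, was at 239, 299, 271 and 288 CPM in control sham hearts, at 218, 285, 232 and 312 in control TAC hearts, at 152, 189.7, 159.9 and 173 in Trbp-cKO sham hearts and at 432, 392, 515 and 279 in Trbp-cKO TAC hearts. It rose with TAC in Trbp-cKO hearts (1.26, SE 0.18, edgeR adjusted p = 0.000299) and its interaction passed (1.33, SE 0.25, edgeR adjusted p = 0.0195). Slc7a1, the cationic amino acid carrier, fell with TAC in control hearts (-1.49, SE 0.19, edgeR adjusted p = 0.000678) and between the sham groups (-1.29, SE 0.19, edgeR adjusted p = 0.00309), with an interaction of 1.58 (SE 0.26, edgeR adjusted p = 0.0112). As for Atf3, the interactions of Slc38a2 and Slc7a1 come from the fit without the clock score. Slc1a5 was called higher with TAC in control hearts (1.08, SE 0.28, edgeR adjusted p = 0.0339), with 69.3 and 95.4 CPM in control TAC replicates 1 and 2 and 32.9 and 40.5 in replicates 3 and 4, against 21.7 to 31.5 in control sham hearts. Slc1a4 rose with TAC in Trbp-cKO hearts (0.84, SE 0.14, edgeR adjusted p = 0.00108).

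None of the 18 cytosolic aminoacyl-tRNA synthetases, which load amino acids onto tRNA, was called by edgeR or DESeq2. The unadjusted edgeR p was under 0.05 for 2 of 18 with TAC in control hearts (26.6% of all genes), 2 between the sham groups (13.7%), 6 between the TAC groups (21.4%), 9 with TAC in Trbp-cKO hearts (23.0%) and 5 for the interaction (15.4%). At the edgeR adjusted p alone, 3 were higher in Trbp-cKO TAC than in control TAC hearts (5.53% of all genes in either direction) and 4 in Trbp-cKO TAC than in Trbp-cKO sham hearts (9.94%). Nars was among both, with log2 fold changes of 0.52 (SE 0.12, edgeR adjusted p = 0.0207) and 0.59 (SE 0.12, edgeR adjusted p = 0.00470). The median log2 fold change of the 18 was 0.22 and 0.23 in these comparisons and 0.33 for the interaction. It was -0.10 with TAC in control hearts and -0.11 between the sham groups, with 3 of 18 above 0 in each.

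Beside ATF4, the unfolded protein response also acts on chaperones. Of 16 endoplasmic reticulum chaperones and folding genes, 1 was called, Hspa5 or BiP, which fell with TAC in control hearts (log2 fold change -0.83, SE 0.19, edgeR adjusted p = 0.0227), where 3.75% of all genes were called. The unadjusted edgeR p was under 0.05 for 6 of 16 with TAC in control hearts (26.6% of all genes), 8 between the sham groups (13.7%), 1 between the TAC groups (21.4%), 3 with TAC in Trbp-cKO hearts (23.0%) and 7 for the interaction (15.4%). The median of the 16 was -0.34 with TAC in control hearts and -0.35 between the sham groups, with 1 of 16 above 0 in each. It was 0.03 between the TAC groups and 0.08 with TAC in Trbp-cKO hearts, with 11 and 10 above 0, and 0.36 for the interaction, with 15 above 0. For the interaction 1 of the 16 passed the edgeR adjusted p without being called (1.05% of all genes), Dnajc3 (0.69, edgeR adjusted p = 0.0452), and DESeq2 called 1, Hyou1 (0.82, DESeq2 adjusted p = 0.0115). DESeq2 also called Hspa5 with TAC in control hearts. Of all genes it called 1088 with TAC in control hearts and 533 for the interaction. Of 10 mitochondrial chaperones and proteases, 1 was called, Clpx, which fell with TAC in control hearts (-1.12, SE 0.30, edgeR adjusted p = 0.0370; 3.75% of all genes called). DESeq2 called Clpx and Hspd1 there. The unadjusted edgeR p was under 0.05 for 5 of the 10 with TAC in control hearts, 0 between the sham groups, 2 between the TAC groups, 1 with TAC in Trbp-cKO hearts and 0 for the interaction, beside the shares of all genes just given. Their medians in this order were -0.57, -0.18, 0.20, -0.26 and 0.43, with 0, 1, 8, 2 and 9 of the 10 above 0. Clpx was at 29.4, 26.1, 60.3 and 69.8 CPM in control TAC hearts, replicates 1 and 2 again standing apart, against 86.6 to 114 in control sham hearts.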

How the data were processed

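The authors ran Cutadapt 2.3 on paired reads of 150 bases, HISAT2 2.1.0 against GRCm38 and StringTie 1.3.4. The deposited values are whole-number counts per gene and heart that the authors derived from coverage, transcript length and a read length setting. That setting and the GENCODE release are not given in the sources used here, so fits were repeated on counts divided by 2. Symbols came from GENCODE M21. The 10 genes and the pathway lists were chosen with earlier results of these data known. From each other list, called genes were named, or else the 2 with the smallest adjusted p; for the kinase list, others were named by role after their values were seen. Genes of like pattern were the 5 with the highest Pearson correlation.

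Counts were fitted with edgeR 4.0.16 in R 4.3.3 (filterByExpr, TMM, robust quasi-likelihood, a coefficient for each of 4 groups over 16 hearts, no covariate), and checked on simulated data. Intervals are 95%. Single genes were also tested by exact permutation of CPM over 70 assignments. Alternatives were library size scaling, DESeq2 1.42.0, 2-group fits, edgeR's exact test, other filters, removal of mitochondrial transcripts, other thresholds, a replicate block and each heart left out. Each heart is a separate mouse.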

Additional observations from a re-analysis of the deposited data

Results flagged for a closer look

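The interaction of deletion and TAC passed for Ppp1r15a, at 1.57 on the log2 scale, so that its change with TAC differed between Trbp-cKO and control hearts. This call was lost with the clock score as covariate, an alternative chosen after the data were seen. With that covariate the number of all genes called for the interaction fell from 174 to 1. In the group of 4 Trbp-cKO TAC hearts, replicate 3 stood apart for Gdf15, at 209 CPM. In the group of 4 Trbp-cKO sham hearts, replicate 2 stood apart for Phgdh, at 5.08 CPM, and for Ppp1r15a, at 25.4 CPM. These were 3 of 40 combinations of gene and group examined with Dixon's test, of which chance flags about 1 in 20.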

How the results depend on the processing

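The number of the 10 genes called with TAC in control hearts was 1, and 0 in the 2-group fit, with a replicate block and with the clock score as covariate, and 0 to 1 with a heart left out. Of all genes, 748 were called there, and 304, 383 and 269 in these fits in this order. With a heart left out, 277 to 1583 of all genes were called. Between the TAC groups the number of the 10 genes was 2, and 0 in the 2-group fit, 1 with edgeR's exact test, without a filter, without mitochondrial transcripts, with the replicate block, with the clock score and at a threshold of 1 on the fold change, and 1 to 2 with a heart left out. Here 491 of all genes were called, and 84 in the 2-group fit. The exact test, no filter, no mitochondrial transcripts, the replicate block and the clock score gave 409, 386, 469, 274 and 462 of all genes. With a heart left out, 287 to 743 were called. Without a threshold on the fold change, the number of the 10 genes was 1 between the sham groups (1.68% of all genes) and 4 with TAC in Trbp-cKO hearts (9.94%). In the latter comparison it was otherwise 2 (1112 of all genes in the main fit), and 2 to 3 with a heart left out (836 to 1122). Atf5 joined without Trbp-cKO TAC replicate 2, at a log2 fold change of 0.82 (edgeR adjusted p = 0.00487). The interaction gave 1 (174 of all genes), but 0 with the clock score (1 of all genes). With a heart left out it gave 1 to 2 (57 to 397 of all genes), Atf4 joining without control TAC replicate 2. DESeq2 gave the same counts of the 10 genes in all 5 comparisons. The exact permutation test fell under 0.05 in 11 of 40 cases, and in 10 without TMM. The cause of each change was not tested.

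Signs turned for these values, none of which passed the adjusted p. With TAC in control hearts, Psat1 was -0.01 with DESeq2, -0.0039 without a filter and -0.06 to 0.06 with a heart left out, where Asns was -0.02 to 0.36 and Mthfd2 -0.14 to 0.26. In sham hearts, Phgdh was 0.05 by library size, 0.23 with the clock score and -0.11 to 0.09 with a heart left out, Asns was 0.69 with the clock score and -0.21 to 0.09, Mthfd2 was 0.42 with the clock score, and Gdf15 was -0.16 to 0.29. Between the TAC groups, Phgdh was 0.0040 by library size. With TAC in Trbp-cKO hearts, Phgdh was -0.10 with the clock score and -0.09 to 0.19 with a heart left out. For the interaction, the clock score gave Atf5 -0.25, Ddit3 -0.21 and Mthfd2 -0.35 (0.73 without it), and Phgdh was -0.26 to 0.02 with a heart left out.

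Correlations of the deviations of same-numbered hearts from their group means ran from -0.43 to 0.21. Differently numbered hearts were not compared, so a pairing by replicate number was not excluded. With the replicate block Ppp1r15a between the sham groups was -0.63 with an adjusted p of 0.0524. Under library size scaling, the median over all genes moved by 0.10 between the sham groups and by 0.14 between the TAC groups. At a few CPM, some intervals of Trib3, Asns and Mthfd2 reach changes as large as the threshold of 0.8, among them those of Asns and Trib3 between the TAC groups.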
